A study of Mus musculus with 34 samples.

Results

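Chemokine transcripts were followed in whole mouse liver after partial hepatectomy (PHx). The genes described are 10 of the 78298 genes in the expression table, taken by their gene identifiers. They are *Ccl2* (ENSMUSG00000035385), *Ccl3* (ENSMUSG00000000982), *Ccl4* (ENSMUSG00000018930), *Ccl6* (ENSMUSG00000018927), *Ccl7* (ENSMUSG00000035373), *Cxcl1* (ENSMUSG00000029380), *Cxcl2* (ENSMUSG00000058427), *Cxcl9* (ENSMUSG00000029417), *Cxcl10* (ENSMUSG00000034855) and *Cxcl12* (ENSMUSG00000061353). All 10 passed the filter on low counts.

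Bulk RNA sequencing (RNA-seq) was available for 34 livers, which the labels number as biological replicates. The SIRTintKO mice (SIRT1intKO in the sample titles) carried a Villin Cre-recombinase, which is active in the intestinal epithelium, together with *Sirt1* alleles in which exon 4 is flanked by loxP sites. The WT mice were controls with the floxed *Sirt1* alleles and no Cre. All were males of C57/Bl6 background, 8 to 12 weeks old by the study's methods, and livers came from untreated mice (0 hours) or from mice 6 or 24 hours after PHx. There were 6, 6 and 4 WT livers and 6, 5 and 7 SIRTintKO livers at 0, 6 and 24 hours. Because the deletion is intestinal, *Sirt1* in liver is no check of genotype. Its difference between genotypes at 24 hours was -0.65 ± 0.22 (log2 ± SE), with an adjusted p of 0.0726.

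Chemokines are small secreted proteins that direct the movement of leukocytes through G protein-coupled receptors. CC chemokines such as CCL2 and CCL7 act on CCR2 of monocytes, CCL3 and CCL4 draw monocytes and other leukocytes, and CXC chemokines with an ELR motif, such as CXCL1 and CXCL2, act on CXCR2 of neutrophils. CXCL9 and CXCL10 are induced by interferons and bind CXCR3 of T cells and natural killer cells, whereas CXCL12 is made by stromal and endothelial cells at rest and binds CXCR4. Many inflammatory chemokine genes are targets of NF-kB, and in liver they can be made by hepatocytes, Kupffer cells, endothelial cells, stellate cells and incoming leukocytes.

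The stretches of 250 bases before the start of 4 of these genes are printed because the genes behaved differently in the data. *Cxcl10* and *Cxcl2* were among the genes that rose in SIRTintKO livers at 24 hours, *Cxcl1* carries motifs close to those of *Cxcl2* but passed the test in no comparison, and *Cxcl12* moved the other way. The sequences are those of RefSeq on build GRCm38.p6, written 5′ to 3′ on the strand of the gene. They were matched for 7 of the 10 genes, with no entry for *Ccl2*, *Ccl4* and *Ccl7*. The counts were made on build GRCm39, so these positions are not those of the counting annotation. *Cxcl1* lies at chr5:90890995-90891244 (plus strand), *Cxcl2* at chr5:90903649-90903898 (plus strand), *Cxcl10* at chr5:92348890-92349139 (minus strand) and *Cxcl12* at chr6:117168285-117168534 (plus strand). Capitals mark matches, on either strand, to GGGNNNTTCC (an NF-kB-type motif), GAAANNGAAA (an interferon response-type motif) or TGANTCA (an AP-1-type motif).
Cxcl1: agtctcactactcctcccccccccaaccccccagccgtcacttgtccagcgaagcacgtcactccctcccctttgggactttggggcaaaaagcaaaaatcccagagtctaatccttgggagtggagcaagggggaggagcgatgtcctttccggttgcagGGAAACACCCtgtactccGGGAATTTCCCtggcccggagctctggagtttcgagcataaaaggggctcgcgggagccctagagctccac
Cxcl2: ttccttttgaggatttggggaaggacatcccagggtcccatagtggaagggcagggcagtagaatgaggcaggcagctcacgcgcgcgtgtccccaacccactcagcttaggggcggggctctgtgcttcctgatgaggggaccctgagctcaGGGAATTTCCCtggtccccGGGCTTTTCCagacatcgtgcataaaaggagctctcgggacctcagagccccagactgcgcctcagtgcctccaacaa
Cxcl10: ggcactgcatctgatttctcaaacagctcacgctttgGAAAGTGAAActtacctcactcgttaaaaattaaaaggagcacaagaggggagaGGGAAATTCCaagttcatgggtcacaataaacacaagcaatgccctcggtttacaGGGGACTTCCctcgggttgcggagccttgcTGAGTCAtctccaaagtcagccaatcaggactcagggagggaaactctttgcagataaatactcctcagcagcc
Cxcl12: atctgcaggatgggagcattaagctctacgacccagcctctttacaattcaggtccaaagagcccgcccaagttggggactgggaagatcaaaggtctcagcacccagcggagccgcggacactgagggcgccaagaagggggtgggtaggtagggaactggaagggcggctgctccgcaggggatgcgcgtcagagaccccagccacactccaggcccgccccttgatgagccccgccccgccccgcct
*Cxcl1* and *Cxcl2* each held 3 matches to the NF-kB-type motif, of which an overlapping pair reads the stretch GGGAATTTCCC on both strands. That stretch lay 71 to 61 bases before the start in *Cxcl1* and 97 to 87 bases before it in *Cxcl2*. *Cxcl10* held 2 matches to the NF-kB-type motif, 1 to the interferon response-type motif at 213 to 204 bases before the start, and 1 to the AP-1-type motif. No match was found in this window for *Cxcl12*, nor for *Ccl3*, *Ccl6* and *Cxcl9*. Of 32851 promoters of the same length, 4.65% held the NF-kB-type motif, 2.98% the interferon response-type motif and 6.75% the AP-1-type motif. These letter matches are descriptions and not measured binding.

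Library totals lay between 14892098 and 23480480 counts (median 16807329). The median Spearman correlation of a library with the others of its group was 0.903 to 0.986, and the WT livers at 24 hours had the lowest values. *Alb*, the albumin transcript of hepatocytes, lay between 15025 and 56283 CPM (counts scaled to the size of each library) over the 34 livers. At 24 hours it was 15025 to 24980 CPM (median 18842) in WT and 24239 to 47338 CPM (median 33723) in SIRTintKO livers. The library names of the 0-hour livers run in a series apart from those after PHx, so a difference in handling and the effect of PHx cannot be told apart in comparisons with 0 hours.

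By group means per kilobase of all annotated exons merged, *Cxcl1* was the most abundant of the 10 transcripts in all 6 groups. Its values ran from 37.7 CPM per kilobase in WT livers at 6 hours to 87.8 in WT livers at 0 hours. This order rests on the length used, which was 1875 bases for *Cxcl1* and 8176 for *Cxcl12*. By mean CPM without length, *Cxcl12* stood above *Cxcl1* at 0 hours (203 against 165 in WT and 197 against 139 in SIRTintKO livers). The same held at 6 hours (110 against 70.7 and 130 against 94.7). *Cxcl12* came next in untreated livers, at 24.8 CPM per kilobase in WT and 24.1 in SIRTintKO mice, and it stood above *Cxcl1* in 2 of 6 untreated WT and 3 of 6 untreated SIRTintKO livers, so their order there is undecided. *Ccl6* followed at 3.72 and 4.84 CPM per kilobase, and the other 7 chemokines had means of 0.161 to 2.11 CPM per kilobase in untreated livers. In SIRTintKO livers at 24 hours the order had changed. *Ccl6* (29.6), *Ccl2* (23.6), *Cxcl10* (21.99) and *Ccl7* (11.9 CPM per kilobase) then stood above or beside *Cxcl12* (11.4 CPM per kilobase), although the wide spread between these livers leaves the order of *Ccl6*, *Ccl2* and *Cxcl10* undecided. Here too the length matters. By mean CPM without length, *Cxcl12* (93.6) stayed above *Ccl6* (53.0), *Cxcl10* (49.5), *Ccl2* (26.9) and *Ccl7* (9.55).

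Chemokine levels varied more between livers of a group than those of most genes. The pooled SD of log2 CPM within groups was 0.81 to 1.61 for 9 of the 10 chemokines, which is the 90.5th to 99.3rd percentile of all 14980 genes tested. It was 0.47 for *Cxcl12*, at the 62.0th percentile, against a median of 0.38 over all genes. Every p-value given here is measured against that spread between livers.

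**Figure D1:**
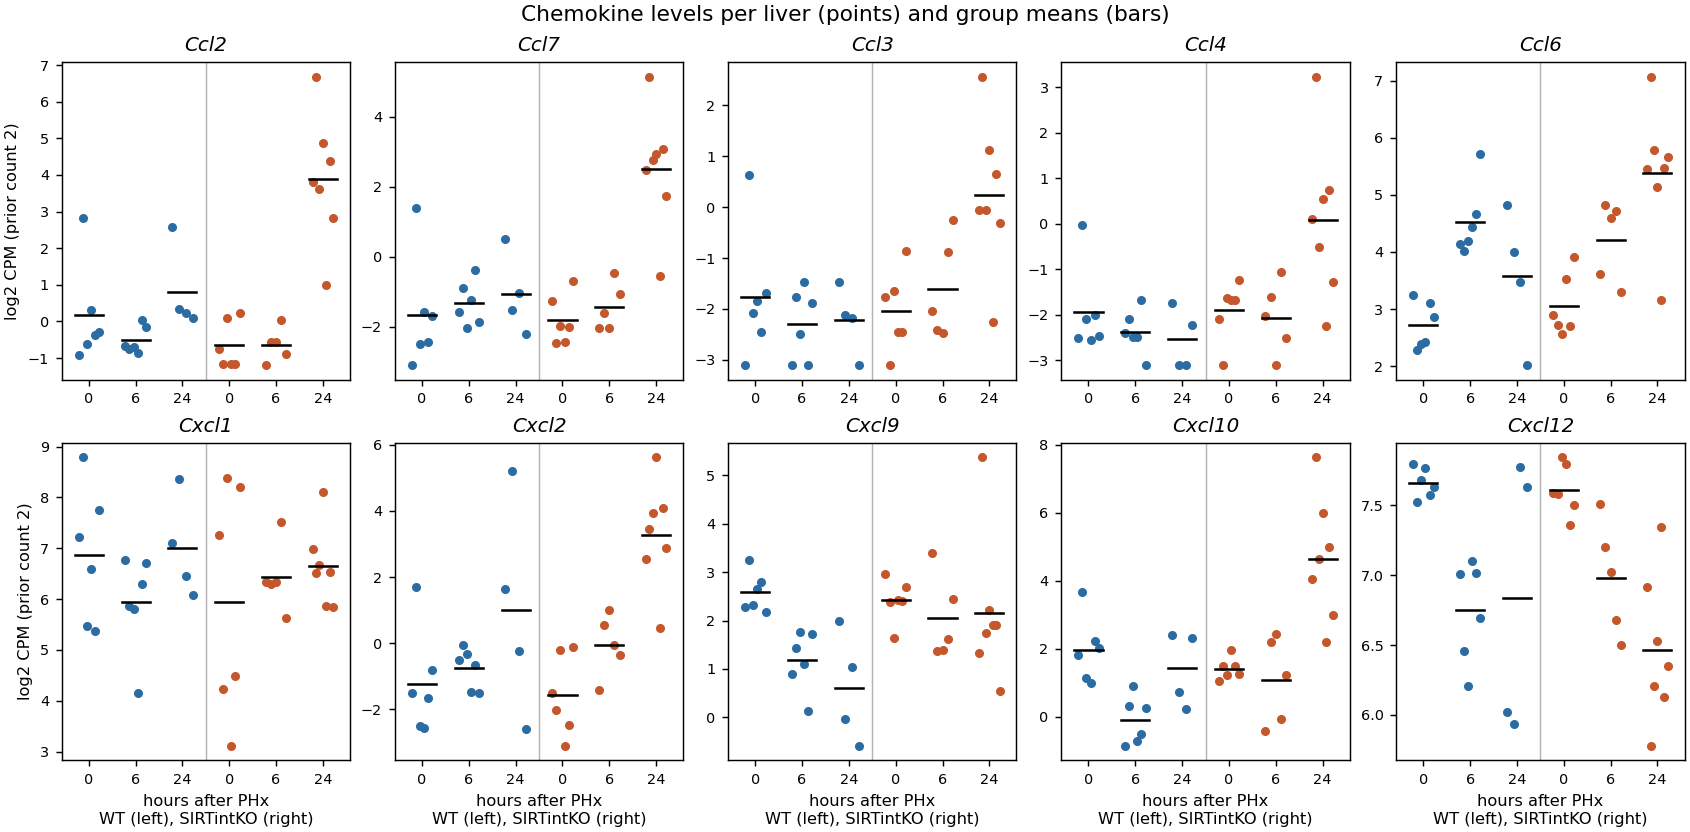
Level of each chemokine in each liver as log2 CPM with a prior count of 2 (vertical axes), by hours after PHx (horizontal axes), for WT (blue, left of the line) and SIRTintKO livers (orange, right of the line); points are livers and bars are group means. The group means of the SIRTintKO livers at 24 hours lie highest for *Ccl2*, *Ccl7*, *Ccl3*, *Ccl4*, *Ccl6* and *Cxcl10*, and *Cxcl2* is as high in 1 WT liver at 24 hours.

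At 6 hours after PHx, the priming phase of regeneration, few chemokines had changed. In WT livers *Ccl6* rose and *Cxcl10* fell, and in SIRTintKO livers *Ccl6* rose. A gene was called when edgeR's quasi-likelihood test gave a Benjamini-Hochberg adjusted p under 0.05 over all genes tested and the log2 fold change was over 1 in size. By this rule 1 chemokine was called higher and 1 lower in WT livers, where 7.17% of all genes were called higher and 8.4% lower, and 1 was called higher in SIRTintKO livers, where 7.86% of all genes were. The median log2 fold change of the 10 chemokines was -1.26 in WT and -0.0027 in SIRTintKO livers, beside 0.019 and 0.0059 over all genes. The WT median was -0.11 without WT replicate 2 at 0 hours.

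At 24 hours more chemokines were called in SIRTintKO than in WT livers. In SIRTintKO livers 7 chemokines rose against 0 hours (*Ccl2*, *Ccl7*, *Cxcl2*, *Cxcl10*, *Ccl4*, *Ccl3* and *Ccl6*) and *Cxcl12* fell, in a comparison where 11.9% of all genes were called higher and 11.1% lower. In WT livers 1 chemokine, *Cxcl2*, was called higher, where 8.32% of all genes were called higher and 7.4% lower. Both comparisons use their own 0-hour livers. Against 6 hours, the same 7 chemokines were called higher in SIRTintKO livers, where 6.7% of all genes were called higher, and *Cxcl2* alone in WT livers, where 4.44% were. The WT call against 6 hours was lost with the replicate block, with only these groups in the fit, and without WT replicate 2 at 24 hours. The median log2 fold change of the 10 chemokines from 0 to 24 hours was 3.39 in SIRTintKO and -0.36 in WT livers, beside 0.037 and 0.016 over all genes. The sign of the WT median turned to 0.27 without WT replicate 2 at 0 hours.

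**Figure D2:**
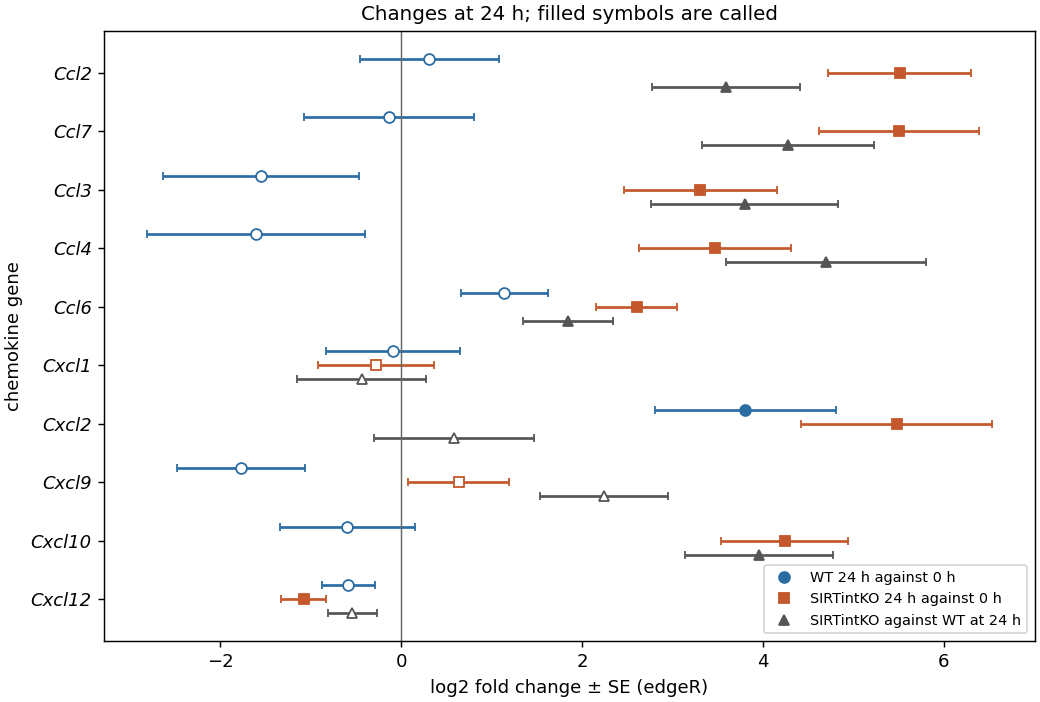
Log2 fold changes with their SE (horizontal axis) of the 10 chemokines (vertical axis) at 24 hours against 0 hours in WT livers (blue circles) and SIRTintKO livers (orange squares), and between SIRTintKO and WT livers at 24 hours (grey triangles); filled symbols are called. *Ccl2* stands at 5.51 in SIRTintKO and 0.31 in WT livers, and *Cxcl1* lies near 0 in all 3 comparisons.

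Directly compared at 24 hours, 6 chemokines were higher in SIRTintKO than in WT livers where 1.38% of all genes were called higher. They were *Ccl4*, *Ccl7*, *Cxcl10*, *Ccl3*, *Ccl2* and *Ccl6*, with log2 fold changes from 1.85 to 4.70 and adjusted p-values from 0.00779 to 0.0278. Fitted to the 11 livers at 24 hours alone, edgeR called 0 chemokines and 0 genes in all, with log2 fold changes of 1.85 to 4.72 and adjusted p-values of 0.271 to 0.296 for these 6. With the replicate number as a block, 4 were called, and *Ccl3* (adjusted p = 0.0636) and *Ccl6* (0.0613) were not. Leaving out 1 liver at a time gave 4 to 7 called chemokines. The count was 4 without SIRTintKO replicate 2, WT replicate 3 or WT replicate 4, and 5 without WT replicate 2, and the calls lost were those of *Ccl3* and *Ccl6*, with *Cxcl2* called in addition without WT replicate 2. The count of 7 came from *Cxcl9*, called without SIRTintKO replicate 1, 4, 5 or 7 or WT replicate 1.

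The interaction, which is the difference between genotypes in the change from 0 hours, was tested as well. At 24 hours edgeR called 0 chemokines, where 0.00668% of all genes were called (1 gene), although 7 had an unadjusted p under 0.05, as had 12.7% of all genes. The interactions of *Ccl2* (5.20 ± 1.11, log2 ± SE) and *Cxcl10* (4.83 ± 1.03) both had an adjusted p of 0.0640, and that of *Ccl7* was 5.63 ± 1.31 (adjusted p = 0.0808). DESeq2 called 5 of the chemokine interactions (*Ccl2*, *Ccl3*, *Ccl4*, *Ccl7* and *Cxcl10*) and 96 genes in all. edgeR called the same 5 without SIRTintKO replicate 5 at 24 hours, and *Ccl2*, *Ccl7* and *Cxcl10* without WT replicate 1 at 24 hours. Without WT replicate 2 at 0 hours, the interaction of *Ccl2* was 3.85 and that of *Ccl7* 3.42. At 0 hours and at 6 hours edgeR called 0 chemokines between genotypes, as did DESeq2, and 0 had an unadjusted p under 0.05, beside 1.07% and 6.52% of all genes. For the interaction at 6 hours both tools again called 0, and 1 chemokine, *Cxcl10*, had an unadjusted p under 0.05 (2.42 ± 1.05, log2 ± SE, edgeR adjusted p = 1.00), beside 3.05% of all genes. At each of these 3 comparisons 0% of all genes were called by edgeR.

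*Ccl2* encodes monocyte chemoattractant protein 1, which draws CCR2-bearing monocytes from blood. In untreated WT livers it lay between 0.417 and 7.00 CPM with a median of 0.683, and in untreated SIRTintKO livers between 0.328 and 1.06 CPM with a median of 0.402. At 24 hours WT replicates 1 to 4 had 5.84, 1.14, 1.05 and 0.946 CPM. The 7 SIRTintKO livers at 24 hours had between 1.88 and 103 CPM with a median of 13.9. All 7 were above every untreated SIRTintKO liver, and 6 were above every WT liver at 24 hours, with replicate 5 (1.88 CPM) the exception. The change from 0 hours in SIRTintKO livers was 5.51 ± 0.79 (log2 ± SE, adjusted p = 1.74e-06), which is 45.7-fold, and that from 6 hours was 5.57 ± 0.86 (adjusted p = 2.83e-05). Between genotypes at 24 hours it was 3.59 ± 0.82 (adjusted p = 0.0132). Without SIRTintKO replicate 2, the highest liver, these became 4.59 against 0 hours and 2.65 between genotypes, and without WT replicate 1 the latter became 4.67, all still called. In WT livers the change from 0 to 24 hours was 0.31, with a 95% interval of -1.25 to 1.87. Its sign turned to -0.77 without WT replicate 1 at 24 hours, and it was 1.66 (adjusted p = 0.0855) without WT replicate 2 at 0 hours.

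*Ccl7*, which encodes another ligand of CCR2, followed a like course at a lower level. Its median was 0.129 CPM in untreated WT livers and 0.134 CPM in untreated SIRTintKO livers. At 24 hours the WT replicates 1 to 4 had 1.29, 0.229, 0.367 and 0.0996 CPM, and the SIRTintKO livers had 0.563 to 35.2 CPM with a median of 6.59. As for *Ccl2*, 6 of the 7 SIRTintKO livers were above all WT livers at that time and replicate 5 lay within their range. The log2 fold change in SIRTintKO livers was 5.50 ± 0.89 from 0 hours (adjusted p = 9.10e-06), and between genotypes it was 4.27 ± 0.95 (adjusted p = 0.0110). Without SIRTintKO replicate 2 these were 4.65 and 3.41, and without WT replicate 1 the difference between genotypes was 5.32.

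*Ccl3* and *Ccl4* encode the macrophage inflammatory proteins 1-alpha and 1-beta. Both were rare transcripts that rested on few reads outside the SIRTintKO livers at 24 hours. In untreated WT livers *Ccl3* was 0 to 1.43 CPM and *Ccl4* 0.0538 to 0.868 CPM. Replicate 2 was the highest for both, with 28 of the 37 counts of *Ccl3* and 17 of the 24 of *Ccl4* in that group. Its *Ccl3* stood above the median of the SIRTintKO livers at 24 hours. The 4 WT livers at 24 hours held 8 counts of *Ccl3* and 5 of *Ccl4* in all, whereas the 7 SIRTintKO livers held 208 and 231. *Ccl3* in those SIRTintKO livers was 0.0938 to 5.80 CPM with a median of 0.851, against 0.246, 0.114, 0.105 and 0 CPM in WT replicates 1 to 4. *Ccl4* was 0.0938 to 9.32 CPM with a median of 0.963, against 0.184, 0, 0 and 0.0996 CPM. For both genes replicate 5 was the only SIRTintKO liver at 24 hours within the WT range. Against untreated SIRTintKO livers, replicate 5 overlapped for *Ccl3* and replicates 5 and 7 for *Ccl4*. From 0 hours *Ccl3* rose by 3.31 ± 0.85 and *Ccl4* by 3.47 ± 0.84 in SIRTintKO livers (log2 ± SE, adjusted p = 0.00172 and 0.00101). Between genotypes the differences were 3.80 ± 1.03 and 4.70 ± 1.10 (adjusted p = 0.0278 and 0.0147). Without SIRTintKO replicate 2 the changes from 0 hours were 2.58 and 2.18, the difference in *Ccl4* between genotypes was 3.40, and the difference in *Ccl3* between genotypes was 3.06 and no longer called (adjusted p = 0.0685). The call of *Ccl3* was also lost without WT replicate 2, 3 or 4.

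*Ccl6*, a CC chemokine of rodent myeloid cells and macrophages that binds CCR1, was the one chemokine that rose at 6 hours in both genotypes. In untreated livers it lay between 4.75 and 9.42 CPM in WT and between 5.80 and 14.9 CPM in SIRTintKO mice. At 6 hours WT livers had 16.03 to 52.5 CPM with a median of 19.8, above all untreated WT livers. The SIRTintKO replicates 1 to 5 at 6 hours had 12.1, 28.3, 23.9, 26.03 and 9.70 CPM, so replicates 1 and 5 lay within the untreated range. The change was 1.91 ± 0.45 in WT (adjusted p = 0.00113) and 1.20 ± 0.46 in SIRTintKO livers (adjusted p = 0.0363), and its difference between genotypes was -0.71 ± 0.63 (adjusted p = 1.00). The SIRTintKO call at 6 hours was lost when SIRTintKO replicate 2, 3 or 4 at 6 hours or replicate 1, 2, 3 or 5 at 0 hours was left out, with log2 fold changes of 1.04 to 1.12 and adjusted p-values of 0.0719 to 0.0951.

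By 24 hours *Ccl6* was 28.3, 15.8, 11.05 and 3.93 CPM in WT replicates 1 to 4 and 8.77 to 134 CPM in SIRTintKO livers, with a median of 44.0. All SIRTintKO livers but replicate 5 were above all WT livers at this time. *Ccl6* rose by 2.60 ± 0.44 from 0 hours in SIRTintKO livers (log2 ± SE, adjusted p = 1.91e-05). Its change in WT livers was 1.14 ± 0.48 and was not called (adjusted p = 0.0657, 95% interval 0.16 to 2.12), although DESeq2 called it (adjusted p = 0.0466). The difference between genotypes was 1.85 ± 0.50 (adjusted p = 0.0268), and it was not called without SIRTintKO replicate 2 (1.41) or without WT replicate 2, 3 or 4 (1.53 to 1.87).

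**Figure D3:**
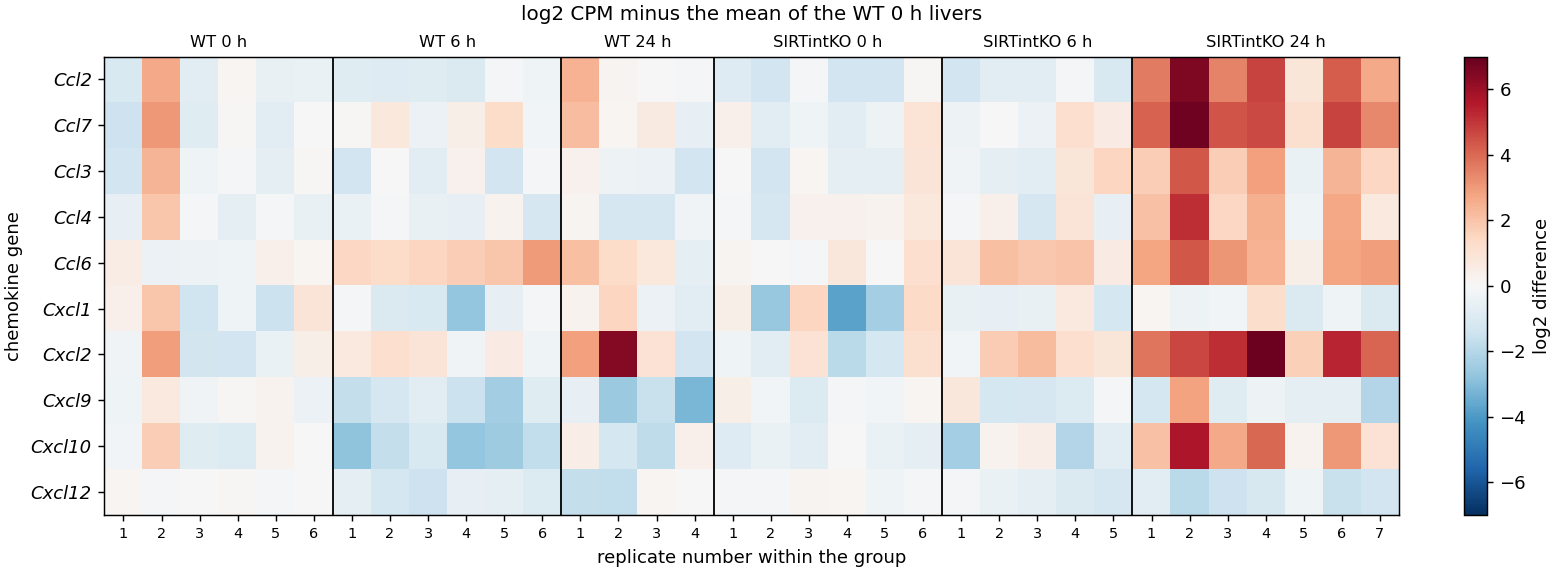
Log2 CPM of each chemokine (rows) in each of the 34 livers (columns, by group and replicate number) minus the mean of the WT livers at 0 hours, from blue (lower) through white to red (higher). The SIRTintKO livers at 24 hours are mostly red in the CC chemokines, *Cxcl2* and *Cxcl10*, except that replicate 5 is blue in *Ccl3* and *Ccl4*. WT replicate 2 at 0 hours is the highest of its group in 8 chemokines.

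*Cxcl1* and *Cxcl2*, the neutrophil attractants, behaved differently. *Cxcl1* (KC) was high without surgery in some livers and was called in none of the 11 comparisons. Untreated WT livers had 41.4 to 442 CPM and untreated SIRTintKO replicates 1 to 6 had 154, 18.7, 335, 8.55, 22.3 and 295 CPM. At 24 hours the values were 137, 328, 87.9 and 67.6 CPM in WT replicates 1 to 4 and 57.7 to 275 CPM in SIRTintKO livers. These ranges overlapped almost fully. The log2 fold change from 0 to 24 hours was -0.28 (95% interval -1.58 to 1.02) in SIRTintKO livers and -0.09 (-1.60 to 1.42) in WT livers, and the difference between genotypes at 24 hours was -0.44 (-1.88 to 1.01).

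*Cxcl2* (MIP-2) was low in most untreated livers, with medians of 0.218 CPM in WT and 0.184 CPM in SIRTintKO mice. Its range was 0.0538 to 3.12 CPM in untreated WT livers, highest in replicate 2, and 0 to 0.807 CPM in untreated SIRTintKO livers. At 24 hours SIRTintKO livers had 1.27 to 49.0 CPM with a median of 10.8, and every one was above every untreated SIRTintKO liver. WT replicates 1 to 4 had 3.01, 36.6, 0.733 and 0.0498 CPM. Replicate 2 thus reached the level of the highest SIRTintKO livers, and the other WT livers did not exceed the highest untreated WT liver. The rise from 0 hours was 5.48 ± 1.06 in SIRTintKO (adjusted p = 9.08e-05; 4.81 without SIRTintKO replicate 4) and 3.81 ± 1.00 in WT livers (adjusted p = 0.00404). The WT call rested on replicate 2, without which the change was 0.78 (adjusted p = 0.617), while it was 5.64 without WT replicate 2 at 0 hours, and it was lost when the fit held only both WT groups (adjusted p = 0.0672). Between genotypes at 24 hours the difference was 0.59 ± 0.88, with a 95% interval of -1.21 to 2.38. Without WT replicate 2 it was 3.59 (adjusted p = 0.0415), and without SIRTintKO replicate 4 it was -0.09.

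*Cxcl10*, encoding an interferon-induced ligand of CXCR3, was 1.88 to 12.7 CPM in untreated WT livers and 1.95 to 3.78 CPM in untreated SIRTintKO livers. At 6 hours WT livers had 0.438 to 1.74 CPM, below every untreated WT liver, and SIRTintKO replicates 1 to 5 had 0.641, 4.51, 5.35, 0.850 and 2.22 CPM. The fall in WT livers was -2.37 ± 0.75 (log2 ± SE, adjusted p = 0.0133), and it was -1.77 and not called without WT replicate 2 at 0 hours (adjusted p = 0.0673). In SIRTintKO livers the change was 0.05, with a 95% interval of -1.43 to 1.53. At 24 hours *Cxcl10* had risen to between 4.50 and 197 CPM in SIRTintKO livers, with a median of 24.6, against 5.23, 1.54, 1.05 and 4.88 CPM in WT replicates 1 to 4. No SIRTintKO liver at 24 hours fell in the untreated SIRTintKO range, and only replicate 5 fell in the range of WT livers at 24 hours. The change from 0 hours was 4.24 ± 0.70 (adjusted p = 1.24e-05) and the difference between genotypes 3.96 ± 0.82 (adjusted p = 0.00779), which became 3.24 and 2.95 without SIRTintKO replicate 2 and were still called. In WT livers the change from 0 to 24 hours was -0.59, with a 95% interval of -2.11 to 0.92.

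*Cxcl9*, another interferon-induced ligand of CXCR3, was called by edgeR in none of the 11 comparisons with all livers. Untreated livers had 4.42 to 9.45 CPM in WT and 3.00 to 7.69 CPM in SIRTintKO mice. At 24 hours WT replicates 1 to 4 had 3.87, 0.857, 1.94 and 0.548 CPM, all below the untreated WT livers, and SIRTintKO livers had 1.34 to 41.4 CPM with a median of 3.66. In WT livers at 6 hours its change was -1.40 (adjusted p = 0.0673), called with DESeq2 (adjusted p = 0.00121). One liver at 24 hours, SIRTintKO replicate 2 (41.4 CPM), stood far above the next (4.55 CPM). The change in SIRTintKO livers was 0.64 ± 0.56 with all livers (adjusted p = 0.352), -0.80 without replicate 2 (0.0809), and -0.75 with DESeq2 (0.0702). In WT livers it was -1.77 ± 0.71, just short of a call with edgeR (adjusted p = 0.0518) and called with DESeq2 (adjusted p = 0.000353). The difference between genotypes at 24 hours was 2.24 ± 0.71 (adjusted p = 0.0530), and 0.80 without SIRTintKO replicate 2 and 0.85 with DESeq2.

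*Cxcl12* (SDF-1), a chemokine made constantly by stromal and endothelial cells, fell in SIRTintKO livers at 24 hours. It was 184 to 222 CPM in untreated WT livers and 164 to 230 CPM in untreated SIRTintKO livers. SIRTintKO livers at 24 hours had 54.7 to 162 CPM with a median of 81.3, and all lay below every untreated SIRTintKO liver. The change was -1.07 ± 0.25 (log2 ± SE, adjusted p = 0.000678). Without SIRTintKO replicate 2 it was -0.98, which keeps the adjusted p under its threshold (0.00196) but misses the fold. WT replicates 1 to 4 at 24 hours had 64.8, 61.0, 219 and 198 CPM, so the first 2 lay below and the others within the range of untreated WT livers (-0.58, 95% interval -1.18 to 0.01). At 6 hours the change in WT livers was -0.88 ± 0.26 (adjusted p = 0.00796), under the fold the rule asks for, and in SIRTintKO livers it was -0.59 ± 0.27 (adjusted p = 0.0835). Between genotypes at 24 hours *Cxcl12* differed by -0.54 ± 0.28 (adjusted p = 0.234).

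In some groups 1 liver was the highest or the lowest in most chemokines, and in others it was not. Among SIRTintKO livers at 24 hours, replicate 2 had the highest value of 7 chemokines (*Ccl2*, *Ccl3*, *Ccl4*, *Ccl6*, *Ccl7*, *Cxcl9* and *Cxcl10*) and the lowest of *Cxcl12*. Replicate 5 had the lowest value of 7 and the highest of *Cxcl12*. Replicate 4 was highest for both neutrophil attractants, *Cxcl1* (275 CPM) and *Cxcl2* (49.0 CPM). In WT livers at 24 hours, replicate 1 was highest for 7 chemokines, replicate 2 for *Cxcl1* and *Cxcl2*, and replicate 4 was lowest for 7. Among untreated livers WT replicate 2 was highest for 8 chemokines and SIRTintKO replicate 6 for 6. At 6 hours no WT liver was highest for more than 3 and no SIRTintKO liver for more than 4. Replicate numbers name livers and do not pair them across groups.

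Receptors of these ligands were read from a list of 23 genes, of which 11 passed the filter on low counts. In SIRTintKO livers 7 rose and 2 fell from 0 to 24 hours, with a median log2 fold change of 1.49. Over all genes in that comparison, 11.9% were called higher and 11.1% lower. *Ccr1*, a receptor of CCL3, CCL6 and CCL7, rose by 4.03 ± 0.55 (log2 ± SE, adjusted p = 8.47e-07). *Ccr2*, the receptor of CCL2 and CCL7, rose by 3.08 ± 0.36 (adjusted p = 6.44e-08), and *Cxcr2*, the receptor of CXCL1 and CXCL2, by 2.88 ± 0.56 (adjusted p = 9.88e-05). *Ackr2*, a decoy receptor that clears CC chemokines, fell by -1.53 ± 0.33 (adjusted p = 0.000307). In WT livers 2 receptors rose and 2 fell, where 8.32% of all genes were called higher and 7.4% lower. *Ccr1* changed by 2.64 ± 0.58 (adjusted p = 0.000897), *Ccr2* by 1.46 ± 0.38 (adjusted p = 0.00403) and *Ackr2* by -1.09 ± 0.38 (adjusted p = 0.0259). The WT call of *Ccr2* was lost without WT replicate 1 at 24 hours (0.95), and that of *Ackr2* without WT replicate 1 or 2. Between genotypes at 24 hours 2 receptors were called higher in SIRTintKO livers, beside 1.38% of all genes. They were *Ccrl2*, which binds chemerin without signalling, at 2.35 ± 0.65 (adjusted p = 0.0305), and *Ccr2* at 1.59 ± 0.37 (adjusted p = 0.0147). *Ccrl2* ranged from 0.657 to 27.96 CPM in the SIRTintKO livers, and its difference was 1.22 and not called without SIRTintKO replicate 2 (adjusted p = 0.126), nor was it called without WT replicate 2, 3 or 4. *Ccr2* was called without each liver in turn. *Ccr2* had a mean of 7.62 ± 3.67 CPM (SD, n = 7) in SIRTintKO and 2.54 ± 1.57 CPM (n = 4) in WT livers.

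Other chemokine ligands formed a list of 26 genes, 15 of them tested. In SIRTintKO livers 6 rose and 1 fell from 0 to 24 hours, beside 11.9% and 11.1% of all genes, with a median log2 fold change of 0.79. *Cxcl14* rose by 3.92 ± 0.80 (adjusted p = 0.000181) and the platelet chemokine *Pf4* by 3.46 ± 0.52 (adjusted p = 3.26e-06), whereas *Ccl25* fell by -1.02 ± 0.22 (adjusted p = 0.000376), just past the fold the rule asks for and short of it in 4 of the 13 fits that left out 1 liver. In WT livers 3 rose and 3 fell, beside 8.32% and 7.4% of all genes. *Cxcl14* rose by 5.61 ± 0.91 (adjusted p = 3.04e-05), with 2.46 to 181 CPM in the 4 livers at 24 hours, and by 4.15 without WT replicate 1 (adjusted p = 0.000703). The falls included *Cxcl13*, the B-cell attractant, by -2.85 ± 0.65 (adjusted p = 0.00126), and *Cxcl11*, the third ligand of CXCR3, by -1.70 ± 0.55 (adjusted p = 0.0174), a call lost without WT replicate 1 or 2 at 24 hours or WT replicate 2 at 0 hours. Of these ligands, 2 were called higher in SIRTintKO than in WT livers at 24 hours, beside 1.38% of all genes. They were *Cxcl13* (2.23 ± 0.63, adjusted p = 0.0337) and *Ccl24*, an eosinophil attractant (1.87 ± 0.44, adjusted p = 0.0147). *Ccl24* was called without each liver in turn and *Cxcl13* in 5 of 11 such fits. At 6 hours 2 of these ligands rose and 2 fell in SIRTintKO livers, and 2 rose and 3 fell in WT livers. Of all genes, 7.86% were called higher in SIRTintKO livers at 6 hours, and 7.17% higher and 8.4% lower in WT livers. The share called lower in SIRTintKO livers at 6 hours is not given here, so their 2 falls are not set against it. *Pf4* rose in SIRTintKO livers (1.44 ± 0.56, adjusted p = 0.0416) and in WT livers (1.75 ± 0.50, adjusted p = 0.00681), and *Ccl24* fell in both (-1.37 ± 0.41 and -1.15 ± 0.39, adjusted p = 0.00863 and 0.0190). *Cxcl14* rose (2.75 ± 0.81, adjusted p = 0.00790) and *Ccl5* fell (-1.95 ± 0.75, adjusted p = 0.0385) in SIRTintKO livers, and *Cxcl11* (-1.47 ± 0.48, adjusted p = 0.0161) and *Cxcl13* (-1.29 ± 0.51, adjusted p = 0.0440) fell in WT livers. The calls of *Pf4* and *Ccl5* in SIRTintKO livers held in 4 and 5 of 11 fits without 1 liver, and that of *Cxcl13* in WT livers in 4 of 12.

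Cytokines that induce chemokines were represented by 14 genes, of which 8 were tested. Shares of all genes called are as given for the receptors. In SIRTintKO livers 5 rose from 0 to 24 hours and 0 fell, among them *Il33* (2.01 ± 0.43, adjusted p = 0.000289), an alarmin released by damaged tissue, and *Il1b* (1.70 ± 0.66, adjusted p = 0.0318), which was called in 8 of 13 fits without 1 liver. In WT livers 2 rose, including *Il33* (2.52 ± 0.46, adjusted p = 0.000127), and *Il1a* fell (-2.22 ± 0.42, adjusted p = 0.000175). Between genotypes at 24 hours *Il1a* (1.91 ± 0.41, adjusted p = 0.00885) and *Csf1* (1.37 ± 0.28, adjusted p = 0.00779), the growth factor of macrophages, were higher in SIRTintKO livers.

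All 15 genes of the list of NF-kB targets and feedback genes were tested. The counts stand beside the shares of all genes given for the receptors. In SIRTintKO livers 9 rose and 0 fell from 0 to 24 hours, with a median log2 fold change of 1.49. They were led by *Tnfaip3* (3.95 ± 0.76, adjusted p = 8.81e-05), which encodes the NF-kB inhibitor A20, *Icam1* (2.90 ± 0.54, adjusted p = 6.26e-05), which encodes an adhesion molecule for leukocytes, and *Relb* (2.45 ± 0.51, adjusted p = 0.000217), an NF-kB subunit. The median in WT livers was 0.30, with a range of -0.43 to 1.07. *Tnfaip3* (2.74 ± 0.83, adjusted p = 0.0448), *Vcam1* (1.56 ± 0.41, adjusted p = 0.0232) and *Birc3* (1.38 ± 0.43, adjusted p = 0.0489) were higher in SIRTintKO than in WT livers at 24 hours. Without 1 liver at a time these calls held in 5, 8 and 5 of 11 fits. *Tnfaip3* was 3.47 to 96.0 CPM in the SIRTintKO livers and 2.74 to 8.49 CPM in the WT livers, so its ranges overlapped as those of the chemokines did.

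The leukocyte markers also changed after PHx. In whole tissue a change in the number of cells of a type cannot be told apart from a change in RNA per cell. The summed level of 12 neutrophil markers was 4.73 to 23.1 CPM over the untreated livers of both genotypes. At 24 hours it was 127, 106, 14.9 and 8.91 CPM in WT replicates 1 to 4 and 23.1 to 960 CPM in SIRTintKO livers, with replicate 2 the highest and replicate 5 the lowest, as for *Ccl2*. All 7 tested neutrophil markers rose in SIRTintKO livers and 5 rose in WT livers from 0 to 24 hours, and 1 was higher in SIRTintKO than in WT livers at 24 hours. Beside them, 11.9%, 8.32% and 1.38% of all genes were called higher. *S100a8* and *S100a9* reached 375 and 498 CPM in SIRTintKO replicate 2, whereas *Ly6g* was at most 0.807 CPM in any liver. WT replicates 1 and 2 had neutrophil sums within the SIRTintKO range, while their *Ccl2* was 5.84 and 1.14 CPM. The part of these cells in the chemokine differences was not tested.

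**Figure D4:**
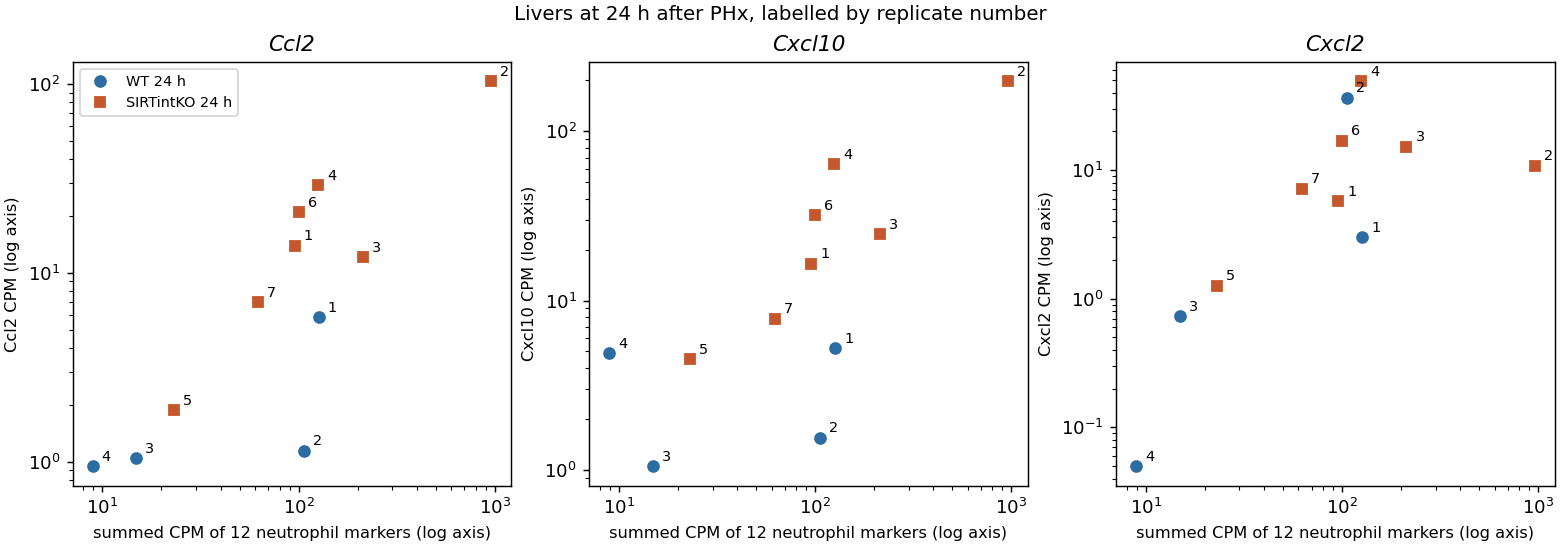
*Ccl2*, *Cxcl10* and *Cxcl2* in CPM (vertical axes, log scale) against the summed CPM of 12 neutrophil markers (horizontal axes, log scale) in the 4 WT (blue circles) and 7 SIRTintKO livers (orange squares) at 24 hours, labelled by replicate number. WT replicates 1 and 2 lie at neutrophil sums of 127 and 106 CPM, among the SIRTintKO livers, with *Ccl2* and *Cxcl10* below the SIRTintKO livers of like sums and *Cxcl2* at 3.01 and 36.6 CPM.

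The summed level of monocyte and macrophage markers split the WT livers at 24 hours. The sum of 14 markers was 1276 and 1089 CPM in WT replicates 1 and 2 and 127 and 120 CPM in replicates 3 and 4, against 138 to 1385 CPM in SIRTintKO livers and 93.9 to 191 CPM in untreated livers of both genotypes. *Spp1* is in this list and in that of cholangiocytes, and without it the WT sums were 877, 940, 77.4 and 58.1 CPM. *Lyz2*, *Csf1r*, *Adgre1* and *Ly6c2* reached at most 30.9, 17.7, 3.40 and 1.48 CPM in these WT livers, so other listed genes made up most of the high sums. From 0 to 24 hours the medians of all these named genes except *Spp1* fell in WT livers (*Lyz2* from 45.7 to 26.6 CPM). In SIRTintKO livers those of *Lyz2* (42.0 to 54.5 CPM) and *Ly6c2* rose and those of *Csf1r* and *Adgre1* fell. From 0 to 24 hours 9 of the 13 tested markers rose in SIRTintKO livers (11.9% of all genes), and 6 rose and 2 fell in WT livers (8.32% and 7.4%). At 24 hours 3 were higher in SIRTintKO than in WT livers (1.38% of all genes). WT replicates 1 and 2 are also those with *Cxcl12* at 64.8 and 61.0 CPM, against 219 and 198 CPM in replicates 3 and 4.

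The remaining lists were read the same way. From 0 to 24 hours, 11.9% of all genes were called higher and 11.1% lower in SIRTintKO livers, and 8.32% and 7.4% in WT livers. Counts of 1 or 2 markers in such short lists lie close to these shares and are not read as a change of a cell type. Of 9 Kupffer cell markers, 1 rose and 2 fell in SIRTintKO livers and 5 fell in WT livers from 0 to 24 hours. Between genotypes at 24 hours 1 was higher in SIRTintKO livers, beside 1.38% of all genes. The sum of 13 lymphocyte markers went from between 6.03 and 9.83 CPM in untreated livers of both genotypes to between 0.457 and 3.51 CPM at 24 hours, and all 3 tested markers fell in both genotypes. The defining marker of natural killer cells, *Ncr1*, was at most 0.180 CPM. Of 10 sinusoidal endothelial markers, 5 fell in each genotype and 1 rose in SIRTintKO livers. Of 10 stellate cell markers, 1 rose and 2 fell in SIRTintKO livers and 1 fell in WT livers. Among 6 tested cholangiocyte markers 4 rose in each genotype, among 10 hepatocyte markers 4 fell in WT and 2 in SIRTintKO livers, and among 5 tested red blood cell markers 1 fell in WT while 1 rose and 1 fell in SIRTintKO livers.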

How the data were processed

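Liver RNA-seq libraries of 34 mice were grouped by genotype and time point as labelled. The authors deposited expected counts from Salmon after STAR alignment in the nf-core pipeline, with stranded mRNA libraries and build GRCm39. Versions and annotation are not given in the sources used here. Of 35 value columns, 1 matched no library's labels and was not used, and the study's text gives 1 more WT liver at 24 hours than the labels. Symbols in the deposited matrix lack the letter x, so those of 5 chemokines were restored by gene identifier with GENCODE vM21, which also gave exon lengths. Of all expected counts 4.97% are not whole. Those of the chemokines lay within 0.01 of a whole number, and all were rounded.

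TMM scaling and filterByExpr by group kept 14980 genes. edgeR 4.0.16 in R 4.3.3 fitted 1 mean per group to all 34 libraries by quasi-likelihood, and p-values were Benjamini-Hochberg adjusted over all genes kept. Calls used the study's limits, 0.05 for the adjusted p and 1 for the size of the log2 fold change. The study ran DESeq2 and shrank its log2 fold changes, a step not used here. The limit of 1 therefore falls on unlike measures. The p-values set differences between group means against the spread between livers within groups, which the main fit estimated over all 6 groups together. CPM used TMM, and log2 CPM a prior count of 2. Genes below 1 CPM had few reads, and 0 CPM means that 0 reads were counted. Libraries of a group differed by a chi-square of at least 15.2 per gene, beyond sampling noise.

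In simulated data (14576 genes tested, 100 changed 4-fold and others 2-fold in SIRTintKO livers at 24 hours), edgeR called 99 of those changed 4-fold for 24 against 0 hours in SIRTintKO livers, 98 between genotypes and 88 for the interaction, with 3, 3 and 2 unchanged genes. It called 0 genes for WT livers at 24 hours, where none had been changed. Only genes above a minimum of expected counts were changed, and each gene had the same spread in all groups. These recoveries therefore do not carry over to chemokines with few reads, such as *Ccl3* and *Ccl4*. Nor do they carry over to genes whose spread differs between groups, such as *Cxcl2* (SD of log2 CPM 3.29 in WT livers at 24 hours and 0.60 at 6 hours).

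The chemokines, gene lists and tests were chosen with earlier results of these data known. Genes named from a list are among the up to 3 highest and 3 lowest called in a comparison, with a mean of at least 0.5 CPM. Marker lists are given as counts, sums and defining genes. The alternatives were DESeq2 1.42.0, DESeq2 size factors, no filter, only the compared groups in the fit, a replicate block and each liver left out in turn. Leaving out SIRTintKO replicate 2 at 24 hours together with WT replicate 2 at 0 hours, and leaving out livers for list genes and medians, was chosen after seeing the data.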

Additional observations from a re-analysis of the deposited data

Results flagged for a closer look

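In 6 of the 60 combinations of a chemokine and a group, 1 liver lay farther from its nearest neighbour, relative to the range of its group, than Dixon's test allows at the 95% level. For independent values chance alone gives about 1 in 20. The chemokines of a liver come from the same sample and are not independent, so this count is no test of an excess over chance. WT replicate 2 at 0 hours stood above its group in *Ccl2* (2.83 log2 CPM), *Ccl4* (-0.022 log2 CPM) and *Ccl7* (1.39 log2 CPM). WT replicate 1 at 24 hours stood above its group in *Ccl2* (2.57 log2 CPM). WT replicate 4 at 6 hours was the lowest in *Cxcl1* (4.15 log2 CPM). SIRTintKO replicate 2 at 24 hours was the highest in *Cxcl9* (5.38 log2 CPM).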

How the results depend on the processing

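With DESeq2's size factors in place of TMM, all 60 chemokine values and 11 counts of called chemokines kept their direction and side of the threshold. With DESeq2, 3 chemokines were called in WT livers at 24 against 0 hours (1 with edgeR), 5 for the interaction at 24 hours (0 with edgeR), and *Cxcl9* in SIRTintKO livers at 24 against 0 hours turned to -0.75. With no filter on low counts 2 were called for the interaction. With only the compared groups in the fit, 0 were called between genotypes at 24 hours (6 in the fit to all libraries) and 0 in WT livers at 24 against 6 hours (1). The cause was not tested. Few reads of *Ccl3* and *Ccl4*, and 4 WT livers at 24 hours, limit the precision. Counts of called chemokines under the alternatives, here and below, stand without the share of all genes called under the same setting. A change in such a count is therefore not told apart from a change over all genes.

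Replicate numbers did not pair livers: deviations from group means correlated at a median of -0.0036 over 76 same-numbered pairs and 0.0061 over the others, and 7.89% of the former exceeded 0.1. With the replicate block 2 chemokines were called in WT livers at 24 against 0 hours, 0 in WT livers at 24 against 6 hours, and 4 between genotypes at 24 hours. The sign turned for *Cxcl2* in WT livers at 6 hours (0.19), *Cxcl10* in SIRTintKO livers at 6 hours (-0.094), *Ccl7* in WT livers at 24 hours (0.47), and *Cxcl1* in SIRTintKO livers at 24 hours (0.057) and in the interaction at 24 hours (0.14).

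Leaving out livers, including the pair chosen after seeing the data, gave 1 to 3 called chemokines in WT and 0 to 1 in SIRTintKO livers at 6 against 0 hours, 0 to 4 in WT and 7 to 8 in SIRTintKO livers at 24 against 0 hours, 0 to 1 in WT and 5 to 7 in SIRTintKO livers at 24 against 6 hours, 4 to 7 between genotypes at 24 hours and 0 to 5 for the interaction at 24 hours. Log2 fold changes that changed sign, none of them called with all livers, were in WT livers at 6 hours *Ccl3* (-2.01 to 0.0070), *Ccl4* (-1.68 to 0.037), *Ccl7* (-1.08 to 1.49) and *Cxcl2* (-0.69 to 1.39). In SIRTintKO livers at 6 hours they were *Ccl2* (-0.34 to 0.21), *Ccl4* (-0.81 to 0.12) and *Cxcl10* (-0.39 to 0.26). In WT livers at 24 hours they were *Ccl2* (-0.77 to 1.67), *Ccl3* (-2.15 to 0.046), *Ccl7* (-1.18 to 2.09), *Cxcl1* (-0.76 to 0.52) and *Cxcl10* (-0.93 to 0.0075), and in SIRTintKO livers at 24 hours *Cxcl1* (-0.66 to 0.18) and *Cxcl9* (-0.81 to 0.88). Between genotypes at 24 hours they were *Cxcl1* (-0.82 to 0.22) and *Cxcl2* (-0.086 to 3.59), and in the interaction at 24 hours *Cxcl1* (-0.78 to 0.45) and *Cxcl2* (-0.16 to 4.67).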
